A study of Mus musculus with 4 samples.

Results

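The 40 genes described here are the heat shock proteins and the machinery of the unfolded protein response (UPR), as measured in mouse colon. The rule is a list of gene symbols and uses no measured value, although the list was drawn up with earlier results of these data known. Each symbol matched 1 of the 24016 rows of the deposited table. All 40 passed the filter on low values, a mean of at least 1 CPM (the count of a gene scaled to library size) over the libraries, as did 14450 genes in all.

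RNA sequencing covered 4 conditions, with 1 library each, in germ-free mice of strain C57BL/6 at an age of 7 weeks. The conditions were gavage with the probiotic Lactobacillus rhamnosus GG (LGG), gavage with Escherichia coli at the same stated dose, gavage with phosphate-buffered saline (PBS), and no treatment. The tissue was a 4 cm length of colon, collected 4 h past gavage. Per the labels each gavaged group had 4 mice, and neither the number of untreated mice nor any pooling of RNA is stated. All mice were germ-free before treatment, so the PBS and untreated libraries represent colon without bacteria.

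Genes received 29899371 counts after LGG, 29368008 after E. coli, 16289580.0 after PBS and 27220697 in untreated colon. The label of colon was borne out by high levels of goblet cell and colonocyte markers, with Muc2 at 8174 to 10513 CPM and Slc26a3 at 859 to 1673 CPM. With 1 library per condition no difference has a replicate check and no test was possible. A ratio is given as log2 of CPM with its 95% counting interval, which covers counting error only and treats reads as independent molecules, which PCR copies are not. A gene is said to be past the size rule where the ratio is at least 1.5-fold (0.585 on the log2 scale) and its interval excludes 0. In whole tissue, fewer cells of a type and less RNA per cell cannot be told apart.

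As background, the cytosolic heat shock response is driven by the transcription factor HSF1, which is held inactive by chaperones and is released when unfolded proteins occupy them. In the endoplasmic reticulum (ER), unfolded proteins activate the sensors IRE1, ATF6 and PERK, and the factors XBP1, cleaved ATF6 and ATF4 then raise chaperones, folding enzymes, the machinery of ER-associated degradation (ERAD) and amino acid metabolism. Colon epithelium depends on this system because goblet cells fold and secrete large amounts of mucin, and it carries a second IRE1 gene, Ern2, which is largely restricted to gut and airway epithelium.

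Per kilobase of transcript, the members lay between percentile 4.15 and percentile 99.4 of the measured genes. Hspa8, the constitutive cytosolic Hsp70, led at a mean of 740 CPM per kilobase, ahead of Hsp90ab1, the constitutive Hsp90, at 594 CPM per kilobase. The ER lectin chaperone Calr followed at 418, the disulfide isomerase Pdia3 at 264, the ER Hsp90 Hsp90b1 at 241 and the ER Hsp70 Hspa5 (BiP) at 207 CPM per kilobase. At the other end stood Chac1 at 0.698 and the pseudokinase Trib3 at 0.536 CPM per kilobase, both targets of ATF4 in severe ER stress. The stress-inducible Hsp70 genes also ranked low, with Hspa1b at 11.5 and Hspa1a at 5.93 CPM per kilobase. The 40 members together took 1.02% of all gene counts after LGG, 0.972% after E. coli, 1.07% after PBS and 0.886% in untreated colon.

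**Figure D1:**
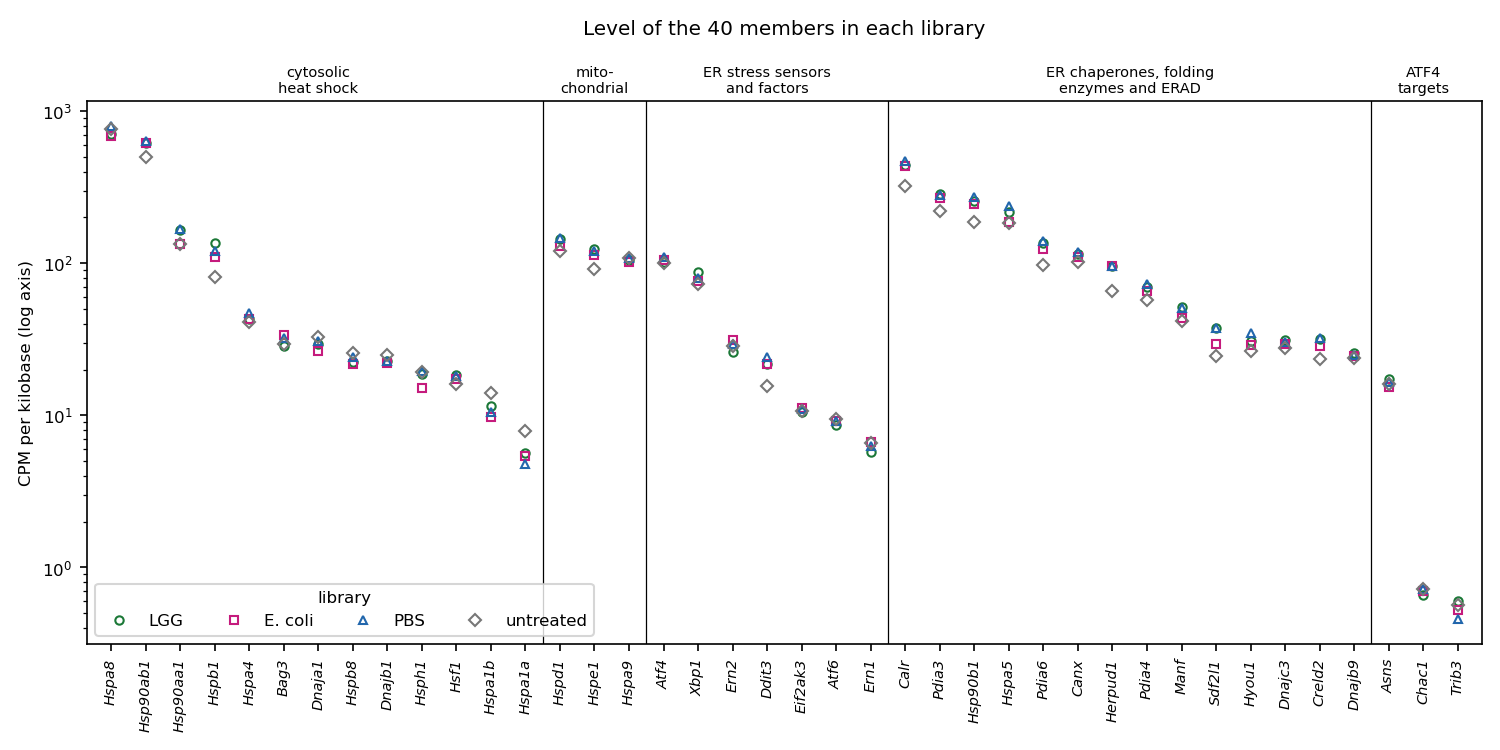
CPM per kilobase (log axis) of each member in the LGG, E. coli, PBS and untreated libraries, with the members grouped by role. Hspa8 and Hsp90ab1 lead at means of 740 and 594, Trib3 and Chac1 lie lowest at 0.536 and 0.698, and the 4 libraries lie close together for every gene.

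The spread between libraries was small beside this range. The ratio of the highest to the lowest library ran from 1.06-fold for the PERK gene Eif2ak3 to 1.67-fold for the small heat shock protein gene Hspb1. Hspa1a (1.66-fold), Ddit3 (1.55-fold) and Sdf2l1 (1.53-fold) came next. The untreated library held the lowest level for 23 of the 40 members, while 34.2% of all measured genes were lowest there. The PBS library held the highest level for 19 members, or 47.5%, against 20.2% of all measured genes. LGG was highest for 10 members, or 25%, near the 24.0% of all measured genes. E. coli was highest for 5, or 12.5%, against 22.2% of all measured genes.

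**Figure D2:**
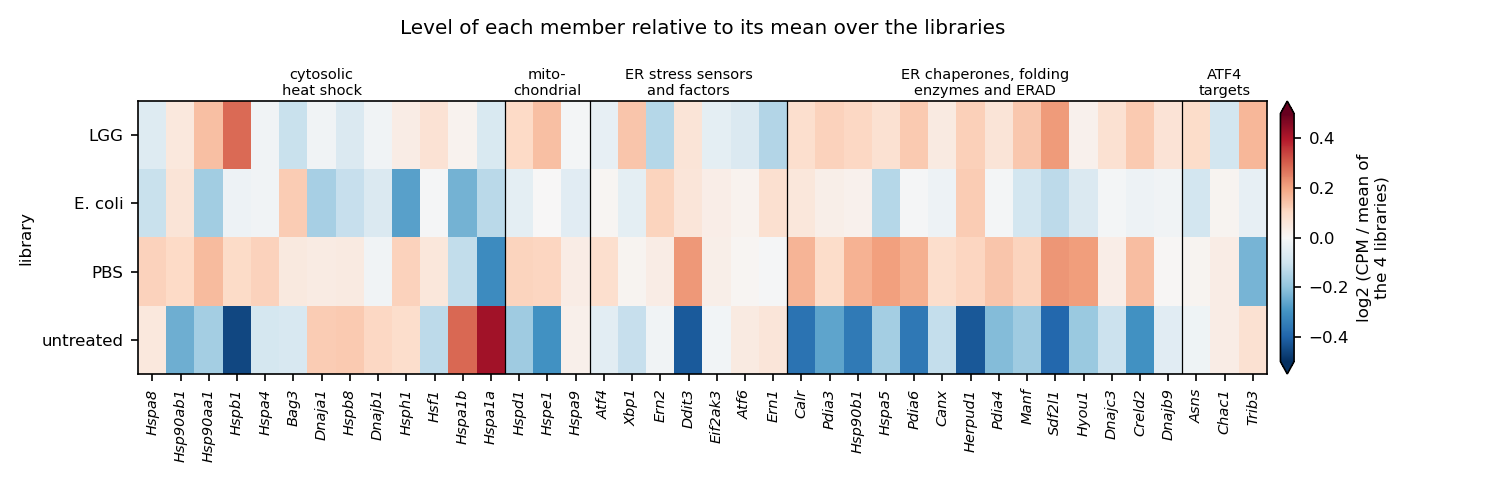
Level of each member in each library as log2 of its CPM over its mean of the 4 libraries, red for above and blue for below the mean. The ER chaperones are blue in the untreated row, where all 14 are lowest, and mostly red in the PBS row, where 9 of the 14 are highest.

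The comparisons share libraries, so their values are set side by side and are not independent. In LGG over untreated, 2 members were past the size rule as higher, Hspb1 and Sdf2l1, and none as lower, where 1.64% of all genes were higher and 3.62% lower. In E. coli over untreated none was past the rule in either direction, beside 2.82% of all genes higher and 5.48% lower. In PBS over untreated, Ddit3 and Sdf2l1 were past the rule as higher and Hspa1a as lower, beside 2.37% of all genes higher and 3.55% lower. These counts are too small to be set apart from the shares over all genes.

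Neither bacterial library had a member past the size rule against PBS. In E. coli over PBS the background was 0.471% of all genes higher and 0.997% lower. For LGG over PBS it was 0.782% higher and 0.789% lower. LGG over E. coli likewise had no member past the rule, where 1.34% of all genes were higher and 0.844% lower.

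Most members differed between libraries by less than the size rule. Over untreated, the median log2 ratio of the 40 was 0.17 for LGG, with 26 members above 0, 0.08 for E. coli, with 27 above 0, and 0.16 for PBS, with 32 above 0. Of all measured genes, 49.7%, 50.97% and 50.3% were above 0 in the same 3 comparisons. Scaling by library totals in place of TMM factors lowered the all-gene medians of these comparisons by 0.08 to 0.10. Under that scaling the member medians were 0.07 for LGG, -0.01 for E. coli and 0.07 for PBS, with 23, 20 and 24 of 40 above 0.

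Against PBS the members leaned the other way. E. coli over PBS had a median of -0.11 with 8 of 40 members above 0, where 50.7% of all genes were above 0. LGG over PBS had a median of -0.05 with 14 of 40 above 0, where 49.3% of all genes were. In LGG over E. coli the median was 0.08, and 31 of 40 members were above 0, where 49.9% of all genes were. PBS is the denominator of both bacterial ratios and the numerator of PBS over untreated, and it is also the shallowest library.

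Cytosolic heat shock genes came as 13 members. Their summed level was 4295 CPM after LGG, 4111 after E. coli, 4565 after PBS and 4020 in untreated colon. Hspa8 and Hsp90ab1 carried most of this sum, so the sum and the median over the genes need not point the same way. Indeed the median ratio over untreated was -0.05 for LGG and -0.16 for E. coli, while the ratio of the summed counts was 0.10 and 0.03. For PBS over untreated the median was 0.06 and the ratio of sums 0.18, and with library totals that median was -0.03.

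The inducible Hsp70 genes Hspa1a and Hspa1b lie near each other on mouse chromosome 17 and are the classical readout of HSF1 activity. Hspa1a (NM_010479; chromosome 17, 35106304 to 35109101 in mm9, minus strand) measured 15.7 CPM after LGG, 15.1 after E. coli, 13.3 after PBS and 22.1 in untreated colon. All 3 gavaged libraries were below the untreated one and PBS was lowest. The ratio over untreated was -0.49 (-0.67 to -0.32) for LGG, -0.55 (-0.73 to -0.38) for E. coli and -0.73 (-0.96 to -0.51) for PBS. With library totals, 1 member was past the rule as lower in LGG and 2 in E. coli over untreated.

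Hspa1b (NM_010478) was at 32.5 CPM after LGG, 27.3 after E. coli, 29.5 after PBS and 39.3 in untreated colon. It too was highest without treatment, with ratios of -0.27 for LGG, -0.53 for E. coli and -0.41 for PBS over untreated. Counts of the pair are hard to divide, because the genes are nearly identical: 58.8% of the 50-base stretches of the Hspa1a transcript also occur in the Hspa1b transcript (GENCODE M21). The sum of both counts does not depend on that division. It gave -0.35 for LGG, -0.54 for E. coli and -0.52 (-0.65 to -0.39) for PBS over untreated, and 0.17 for LGG over PBS.

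The likeness extends upstream of both genes. Their RefSeq promoter windows (GRCm38.p6, 250 bases before to 50 after the start) are identical at 296 of 300 bases. Below are the 250 bases before each start, chr17:34972157-34972406 for Hspa1a and chr17:34959239-34959488 for Hspa1b, both on the minus strand, shown because in each gavaged library these were the cytosolic members furthest below untreated. Capitals mark the 3 bases at which they differ.
Hspa1a: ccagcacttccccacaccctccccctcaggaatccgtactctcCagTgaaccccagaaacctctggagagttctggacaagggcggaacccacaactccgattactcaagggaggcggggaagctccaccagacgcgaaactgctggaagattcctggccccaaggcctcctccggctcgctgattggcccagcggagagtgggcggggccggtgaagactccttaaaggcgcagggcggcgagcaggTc
Hspa1b: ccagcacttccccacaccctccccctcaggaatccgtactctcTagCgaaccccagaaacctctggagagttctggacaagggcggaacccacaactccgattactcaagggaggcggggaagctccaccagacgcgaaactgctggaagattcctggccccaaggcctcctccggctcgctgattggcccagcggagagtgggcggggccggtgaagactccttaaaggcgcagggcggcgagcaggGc

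Hspb1 encodes a small heat shock protein that holds unfolded proteins and is linked to the actin cytoskeleton. Over untreated it ran opposite to the Hspa1 pair, while in LGG over PBS Hspb1 and the summed pair were both above 0. Hspb1 (NM_013560; chromosome 5, 136363789 to 136365433 in mm9) measured 123 CPM after LGG, 99.1 after E. coli, 108 after PBS and 73.5 in untreated colon. LGG was highest and untreated lowest. The ratio over untreated was 0.74 (0.66 to 0.82) for LGG, 0.43 (0.35 to 0.51) for E. coli and 0.55 (0.46 to 0.64) for PBS. LGG exceeded PBS by 0.19 (0.11 to 0.27) and E. coli by 0.31 (0.24 to 0.38).

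The other small heat shock protein among the members, Hspb8, which works with the cochaperone Bag3 in selective autophagy, had 40.3 CPM after LGG, 39.1 after E. coli, 43.7 after PBS and 46.5 in untreated colon. It was highest where Hspb1 was lowest. Within a library the counts of Hspb1 were 3.05 times those of Hspb8 in LGG, 2.53 times in E. coli, 2.46 times in PBS and 1.58 times in untreated; such ratios of counts, not corrected for length, compare libraries and not genes. Bag3 itself was at 74.4 CPM after LGG, 87.8 after E. coli, 83.1 after PBS and 76.0 in untreated colon, highest in E. coli and nearly level in LGG and untreated.

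The constitutive chaperones differed less. Hspa8 (NM_031165) was at 1481 CPM after LGG, 1431 after E. coli, 1676 after PBS and 1604.5 in untreated colon. Both bacterial libraries were below both libraries without bacteria. The ratio to PBS was -0.18 (-0.20 to -0.16) for LGG and -0.23 (-0.25 to -0.21) for E. coli.

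The Hsp90 genes parted between libraries. Hsp90ab1, the constitutive form, was at 1538 CPM after LGG, 1549 after E. coli, 1590.0 after PBS and 1253 in untreated colon, so the gavaged libraries stood close together and above the untreated one. Hsp90aa1, the stress-inducible form, was at 473 CPM after LGG, 377 after E. coli, 475 after PBS and 378 in untreated colon. LGG and PBS were high, and E. coli and untreated were low. Counts of Hsp90aa1 were accordingly 0.307 of those of Hsp90ab1 in LGG and 0.244 in E. coli, beside 0.299 in PBS and 0.302 in untreated. This ratio needs no scaling between libraries, and its counting intervals were 0.301 to 0.313 in LGG and 0.239 to 0.249 in E. coli.

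Hsph1, an Hsp110 that serves Hsp70 as nucleotide exchange factor, repeated the low E. coli value. It was at 64.6 CPM after LGG, 52.2 after E. coli, 68.2 after PBS and 67.0 in untreated colon. E. coli alone stood apart, at -0.39 (-0.50 to -0.27) from PBS, and LGG was 0.31 (0.21 to 0.41) above E. coli. Dnaja1, an Hsp40 cochaperone, was likewise lowest in E. coli at 148 CPM, with 164 CPM in LGG, 171 in PBS and 182 in untreated. In all, 7 of the 13 cytosolic members were lowest in the E. coli library, where 21.4% of all measured genes were lowest.

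Among the remaining cytosolic members, Dnajb1, the Hsp40 that helps return HSF1 to rest, was at 51.7 CPM after LGG, 49.8 after E. coli, 51.7 after PBS and 56.3 in untreated colon. Hspa4, another Hsp110, was at 199.7 CPM after LGG, 199.3 after E. coli, 219 after PBS and 189.9 in untreated colon. Hsf1, the transcription factor of the pathway, was at 36.9 CPM after LGG, 34.98 after E. coli, 36.5 after PBS and 32.02 in untreated colon. Its differences among the gavaged libraries were within counting error, with 0.02 (-0.13 to 0.16) for LGG over PBS and -0.06 (-0.21 to 0.09) for E. coli over PBS.

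By median the cytosolic group was at -0.05 in LGG over PBS with 5 of 13 above 0, at -0.12 in E. coli over PBS with 2 of 13, and at 0.06 in LGG over E. coli with 11 of 13. These signs held with library totals, where 4, 2 and 10 were above 0.

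**Figure D3:**
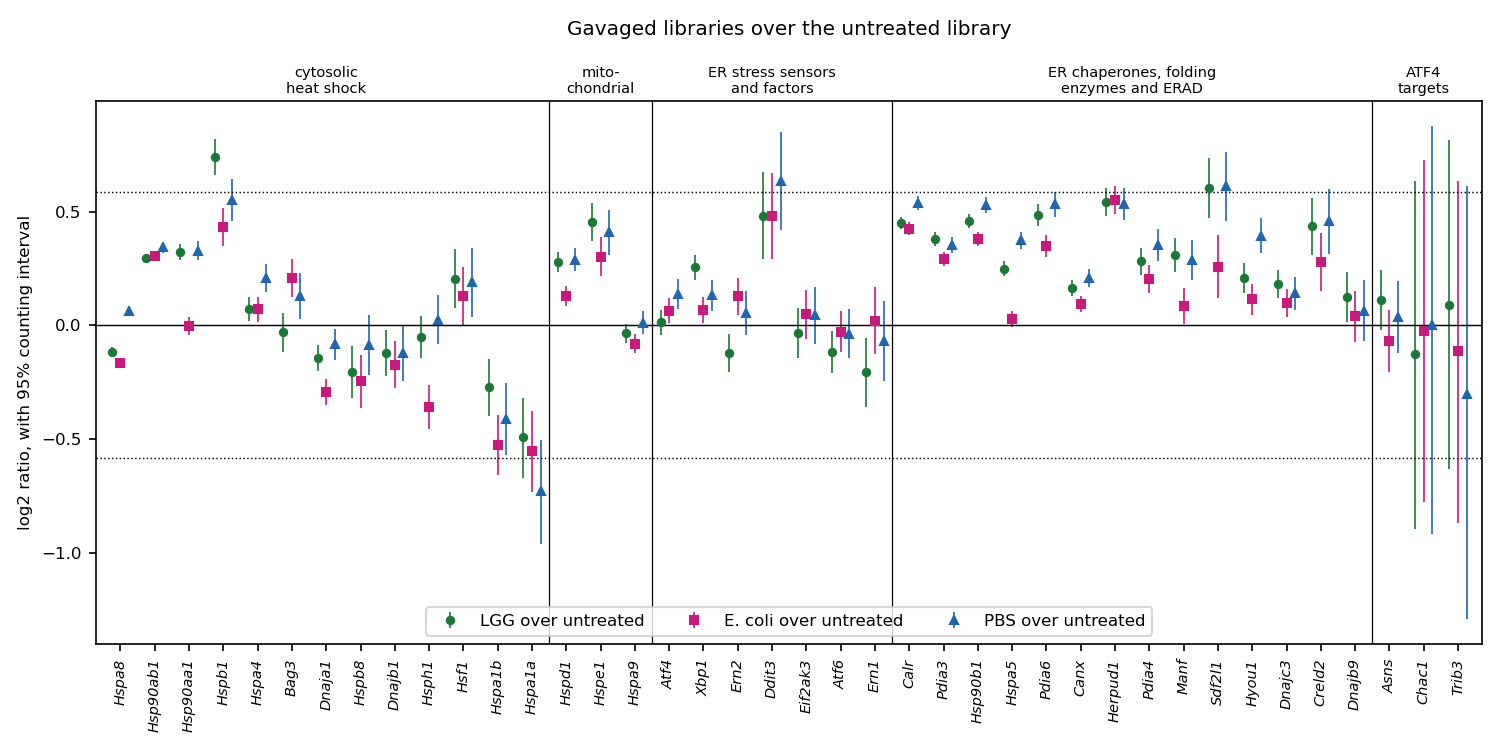
Log2 ratio of the LGG, E. coli and PBS libraries over the untreated library for each member, with 95% counting intervals; dotted lines mark 1.5-fold. All 14 ER chaperones lie above 0 in each comparison, at medians of 0.34, 0.23 and 0.38, while Hspa1a and Hspa1b lie below 0 and Hspb1 reaches 0.74 in LGG.

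The 3 mitochondrial chaperones summed to 749 CPM after LGG, 696 after E. coli, 759 after PBS and 672 in untreated colon. Hspd1 and Hspe1 encode Hsp60 and its lid Hsp10, which form one folding chamber, and the genes lie head to head. Hspd1 (NM_010477; chromosome 1, 55134678 to 55144776 in mm9, minus strand) measured 336 CPM after LGG, 303 after E. coli, 339 after PBS and 277 in untreated colon. Hspe1 (NM_008303; chromosome 1, 55144992 to 55148161 in mm9, plus strand) measured 95.2 CPM after LGG, 85.8 after E. coli, 92.3 after PBS and 69.6 in untreated colon.

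Both genes of the pair were lowest in untreated and lower in E. coli than in LGG or PBS. Over untreated, Hspe1 was at 0.45 (0.37 to 0.54) for LGG, 0.30 (0.22 to 0.39) for E. coli and 0.41 (0.31 to 0.51) for PBS, and Hspd1 at 0.28, 0.13 and 0.29. In LGG over E. coli both were at 0.15. Hspa9, the mitochondrial Hsp70 that pulls proteins through the import channel, was flatter, at 317 CPM after LGG, 307 after E. coli, 328 after PBS and 325 in untreated colon.

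RefSeq lists 2 starts for Hspd1. The window of 1 of them shares 285 bases with the Hspe1 window, the other window holds no heat shock element, and the shared stretch holds a pair of overlapping heat shock elements. The element (HSE), the binding motif of HSF1, was searched on both strands as GAA, TTC and GAA with 2 bases of any kind between them, and 0.603% of the 32851 RefSeq promoter windows hold it. Among the 31 members with a window it occurred in Hspd1, Hspe1 and Hsph1, where the copy GAActTTCcaGAA lies just after the start. Only exact copies were searched. For the other windows, those of Hspa1a and Hspa1b included, the result says only that these letters are absent. Elements that depart from these letters were not searched. The 250 bases before the Hspe1 start (chr1:55087898-55088147, plus strand, GRCm38.p6) are given because their overlapping copies, in capitals, lie before the Hspe1 start and before that start of Hspd1.
Hspe1: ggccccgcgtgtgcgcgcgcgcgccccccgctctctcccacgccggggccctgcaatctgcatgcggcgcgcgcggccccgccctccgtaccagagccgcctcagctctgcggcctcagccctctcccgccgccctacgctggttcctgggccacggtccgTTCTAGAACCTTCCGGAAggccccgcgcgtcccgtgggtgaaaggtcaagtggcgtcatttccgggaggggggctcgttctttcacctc

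Sensors and transcription factors of the ER response, 7 members, differed little between libraries apart from Ddit3. Ern1, the ubiquitous IRE1, was at 22.7 CPM after LGG, 26.6 after E. coli, 24.99 after PBS and 26.2 in untreated colon. Ern2, the epithelial IRE1, was at 77.3 CPM after LGG, 91.9 after E. coli, 87.4 after PBS and 84.2 in untreated colon. LGG was the low library for both IRE1 genes and E. coli the high one. The ratio of LGG over E. coli was -0.23 (-0.38 to -0.08) for Ern1 and -0.25 (-0.33 to -0.17) for Ern2, and Ern2 was at -0.18 (-0.27 to -0.08) in LGG over PBS. Counts of Ern2 were 3.41 times those of Ern1 in LGG, 3.46 times in E. coli, 3.496 times in PBS and 3.21 times in untreated.

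Xbp1, whose transcript IRE1 splices to make the active factor, took the other direction. It was at 195 CPM after LGG, 172 after E. coli, 179 after PBS and 164 in untreated colon. LGG was highest, at 0.19 (0.13 to 0.24) over E. coli, 0.12 (0.06 to 0.19) over PBS and 0.25 (0.20 to 0.31) over untreated. Gene counts do not separate the spliced from the unspliced transcript, so IRE1 activity cannot be read from them.

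Eif2ak3, which encodes the sensor kinase PERK, was at 47.0 CPM after LGG, 49.8 after E. coli, 49.6 after PBS and 48.1 in untreated colon. Atf6, the sensor that is cut to release a transcription factor, was at 64.6 CPM after LGG, 68.7 after E. coli, 68.3 after PBS and 70.1 in untreated colon. Most of these differences were within counting error, with LGG the lowest library for both genes. In LGG over PBS, Eif2ak3 was at -0.08 (-0.20 to 0.05) and Atf6 at -0.08 (-0.19 to 0.03).

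Atf4, which encodes the factor translated when PERK slows other protein synthesis, was at 175 CPM after LGG, 182 after E. coli, 191 after PBS and 174 in untreated colon. PBS was highest and the range was narrow, and since ATF4 is controlled largely in translation its mRNA is a limited readout. Ddit3, which encodes the stress factor CHOP downstream of ATF4, was at 18.9 CPM after LGG, 18.9 after E. coli, 21.0 after PBS and 13.5 in untreated colon. All gavaged libraries were above the untreated one. Over untreated, Ddit3 was at 0.48 (0.29 to 0.67) for both LGG and E. coli and at 0.63 (0.42 to 0.85) for PBS, where it was past the size rule. With library totals no member remained past the rule as higher in PBS over untreated.

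The median of the 7 was -0.03 in LGG, 0.06 in E. coli and 0.05 in PBS over untreated. With library totals it was -0.13 in LGG, -0.02 in E. coli and -0.04 in PBS. Against PBS it was -0.12 for LGG, with 1 of 7 above 0, and 0.01 for E. coli, with 4 of 7 above 0.

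ER chaperones, folding enzymes and ERAD genes, 14 members, all had their lowest level in the untreated library, where 34.2% of all measured genes were lowest. With library totals 12 of the 14 did. Their summed level was 4554 CPM after LGG, 4269 after E. coli, 4725 after PBS and 3559 in untreated colon. Over untreated, the median ratio was 0.34 for LGG, 0.23 for E. coli and 0.38 for PBS, and with library totals 0.25, 0.15 and 0.29. The untreated library thus stood below all 3 gavaged ones, and the libraries ordered by the sum ran PBS, LGG, E. coli, untreated.

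Hspa5, or BiP, the Hsp70 that binds the ER sensors and is the usual marker of the UPR, was at 568 CPM after LGG, 487 after E. coli, 620.0 after PBS and 478 in untreated colon. E. coli lay close to untreated and PBS lay highest. Over untreated, Hspa5 (NM_022310, chromosome 2, 34627610 to 34632049 in mm9) was at 0.25 (0.22 to 0.28) for LGG, 0.03 (-0.01 to 0.06) for E. coli and 0.38 (0.34 to 0.41) for PBS. The E. coli value was the lowest of the group in that comparison and became -0.06 with library totals. Relative to Hspa8 in the same library, Hspa5 counts were 0.384 in LGG, 0.340 in E. coli, 0.370 in PBS and 0.298 in untreated.

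Hsp90b1, the ER Hsp90 with a narrow set of client proteins, was at 707 CPM after LGG, 669 after E. coli, 744 after PBS and 515 in untreated colon. Calr, a lectin chaperone that retains immature glycoproteins, was at 854 CPM after LGG, 840.1 after E. coli, 908 after PBS and 626 in untreated colon. For both, the gavaged libraries lay within a narrow band above untreated. Hsp90b1 was at 0.46 for LGG, 0.38 for E. coli and 0.53 for PBS over untreated, and Calr at 0.45, 0.43 and 0.54. Canx, the membrane-bound relative of Calr, differed less, at 491 CPM after LGG, 468 after E. coli, 506 after PBS and 438 in untreated colon.

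Pdia3, the disulfide isomerase that pairs with Calr and Canx, was at 751 CPM after LGG, 707 after E. coli, 738 after PBS and 578 in untreated colon. Pdia6, another isomerase, was at 287 CPM after LGG, 261 after E. coli, 297 after PBS and 205 in untreated colon. Both were lowest in untreated, and E. coli was the lowest of the gavaged libraries. Pdia4 followed the same order as Pdia6, at 172 CPM after LGG, 163 after E. coli, 181 after PBS and 142 in untreated colon.

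Sdf2l1, a partner of an ER Hsp40 cochaperone of BiP, ranged 1.53-fold between libraries. Sdf2l1 (NM_022324; chromosome 16, 17130231 to 17132476 in mm9) measured 41.2 CPM after LGG, 32.4 after E. coli, 41.4 after PBS and 27.1 in untreated colon. LGG and PBS were level, E. coli lay between them and untreated. Over untreated the ratio was 0.60 (0.47 to 0.74) for LGG, 0.26 (0.12 to 0.40) for E. coli and 0.61 (0.46 to 0.76) for PBS.

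Herpud1, a membrane protein of the ERAD complex, was the exception to the low E. coli values. It was at 179 CPM after LGG, 180 after E. coli, 178 after PBS and 123 in untreated colon, so the gavaged libraries were level. Over untreated it was at 0.54 (0.48 to 0.60) for LGG, 0.55 (0.49 to 0.61) for E. coli and 0.53 (0.46 to 0.61) for PBS, each just short of the size rule. Among the gavaged libraries its ratios were between -0.01 and 0.02.

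Hyou1, the nucleotide exchange factor of BiP, was at 135 CPM after LGG, 127 after E. coli, 154 after PBS and 117 in untreated colon, with PBS standing apart from the rest. Manf, a secreted protein that binds BiP, was at 113 CPM after LGG, 96.7 after E. coli, 111 after PBS and 91.2 in untreated colon. Creld2 was at 43.2 CPM after LGG, 38.8 after E. coli, 43.9 after PBS and 31.95 in untreated colon. These followed Hspa5 and Sdf2l1 in having E. coli lowest among the gavaged libraries. The cochaperones Dnajc3, at 143 to 163 CPM, and Dnajb9, at 44.1 to 48.1 CPM, varied least.

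Against PBS the ER group was at a median of -0.03 in LGG, with 5 of 14 above 0, and -0.15 in E. coli, with 1 of 14 above 0. The widest E. coli over PBS ratios were -0.35 (-0.50 to -0.21) for Sdf2l1, -0.35 (-0.38 to -0.31) for Hspa5 and -0.28 (-0.35 to -0.21) for Hyou1. LGG over E. coli had a median of 0.09 with 13 of 14 above 0, led by Sdf2l1 at 0.35 (0.22 to 0.47), Manf at 0.23 (0.15 to 0.30) and Hspa5 at 0.22 (0.19 to 0.25). The counts for E. coli over PBS and LGG over E. coli were the same with library totals.

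**Figure D4:**
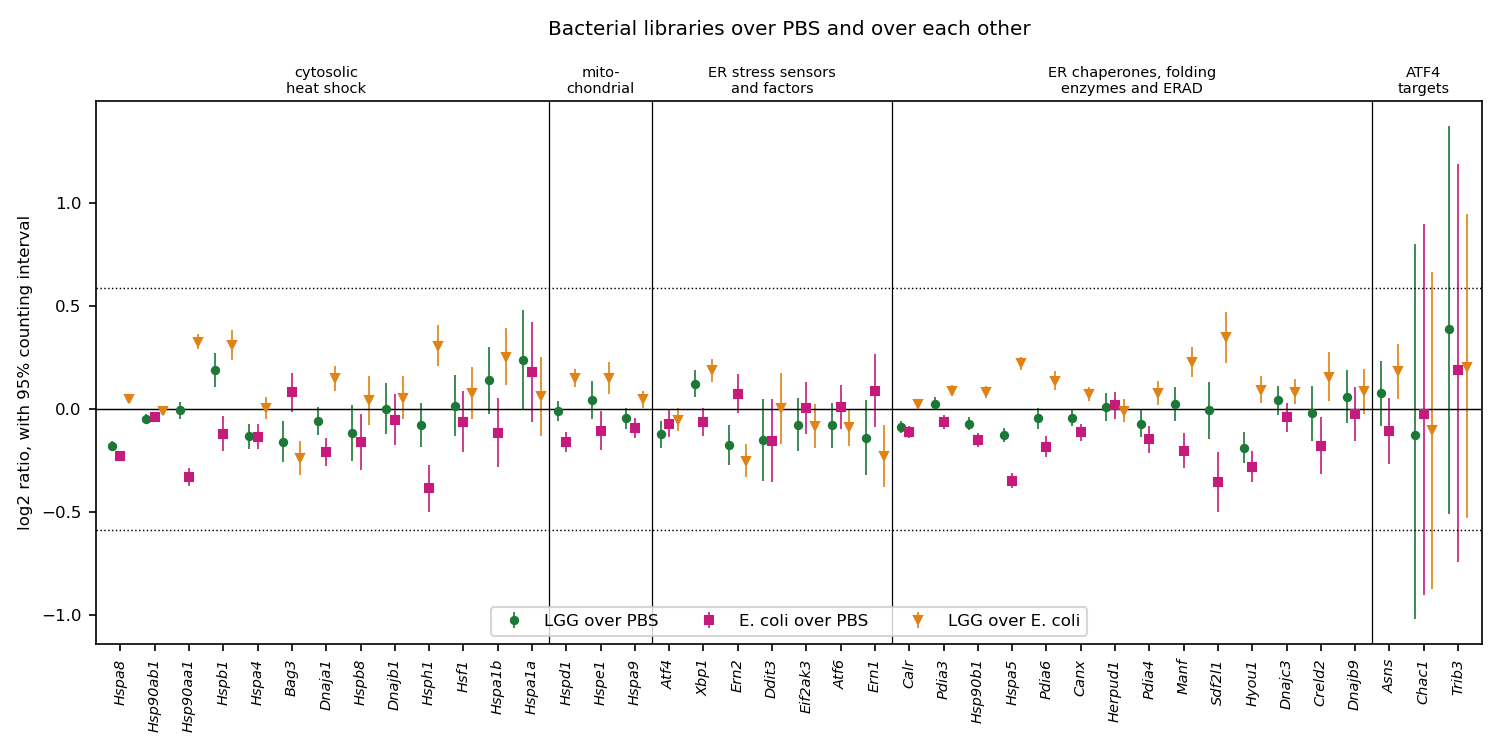
Log2 ratio of LGG over PBS, E. coli over PBS and LGG over E. coli for each member, with 95% counting intervals; dotted lines mark 1.5-fold. No member passes the size rule, and E. coli over PBS lies below 0 for 13 of 14 ER chaperones and 11 of 13 cytosolic members, with Hsph1 lowest at -0.39.

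Some promoters of this group carry the element through which ATF6 and XBP1 act. The ER stress element (ERSE) was searched on both strands as CCAAT and CCACG with 9 bases of any kind between them. It occurred in 7 of the 12 ER chaperone genes with a RefSeq window, in no other member, and in 0.119% of all 32851 windows. The copies are lined up in the direction of the motif, with its fixed bases in capitals.
Hspa5 (65 bases before the start): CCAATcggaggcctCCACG
Hsp90b1 (212 bases before): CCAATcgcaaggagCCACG
Hsp90b1 (107 bases before, other strand): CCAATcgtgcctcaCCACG
Calr (162 bases before, other strand): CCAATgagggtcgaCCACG
Canx (145 bases before): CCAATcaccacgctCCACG
Creld2 (126 bases before, other strand): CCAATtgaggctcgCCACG
Dnajc3 (105 bases before): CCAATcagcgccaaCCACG
Pdia6 (98 bases before): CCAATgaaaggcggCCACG

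The spacer of 9 bases between the fixed parts differed from copy to copy. Herpud1 held the shorter ERSE-II, searched on both strands as ATTGG and CCACG with 1 base between them, as ATTGGgCCACG at 52 bases before its start, a motif in 0.0365% of all windows. No member window held the XBP1 motif TGACGTGG, found in 0.676% of all windows, or the ATF4 motif TGATGNAAT, found in 0.965%, which says only that these letters are not in these windows. Genes with and without a copy were both lowest in untreated, and Pdia3 and Pdia4 were among those without.

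The 250 bases before the start are given for Hspa5 (chr2:34771840-34772089, plus strand) and Hsp90b1 (chr10:86705445-86705694, minus strand), both from GRCm38.p6. In these abundant chaperones the search found 1 and 2 exact copies of the element. Near matches were not searched. Capitals mark the copies.
Hspa5: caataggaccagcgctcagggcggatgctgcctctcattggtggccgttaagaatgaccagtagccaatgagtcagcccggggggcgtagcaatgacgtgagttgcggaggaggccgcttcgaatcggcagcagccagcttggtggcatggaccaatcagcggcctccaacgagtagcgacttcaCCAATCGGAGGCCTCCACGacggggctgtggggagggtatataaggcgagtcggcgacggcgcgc
Hsp90b1: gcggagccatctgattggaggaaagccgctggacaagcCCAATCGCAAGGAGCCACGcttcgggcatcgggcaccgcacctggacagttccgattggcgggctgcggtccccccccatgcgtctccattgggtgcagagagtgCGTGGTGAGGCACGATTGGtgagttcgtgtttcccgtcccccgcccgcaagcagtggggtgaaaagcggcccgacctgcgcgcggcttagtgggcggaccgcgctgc

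**Figure D5:**
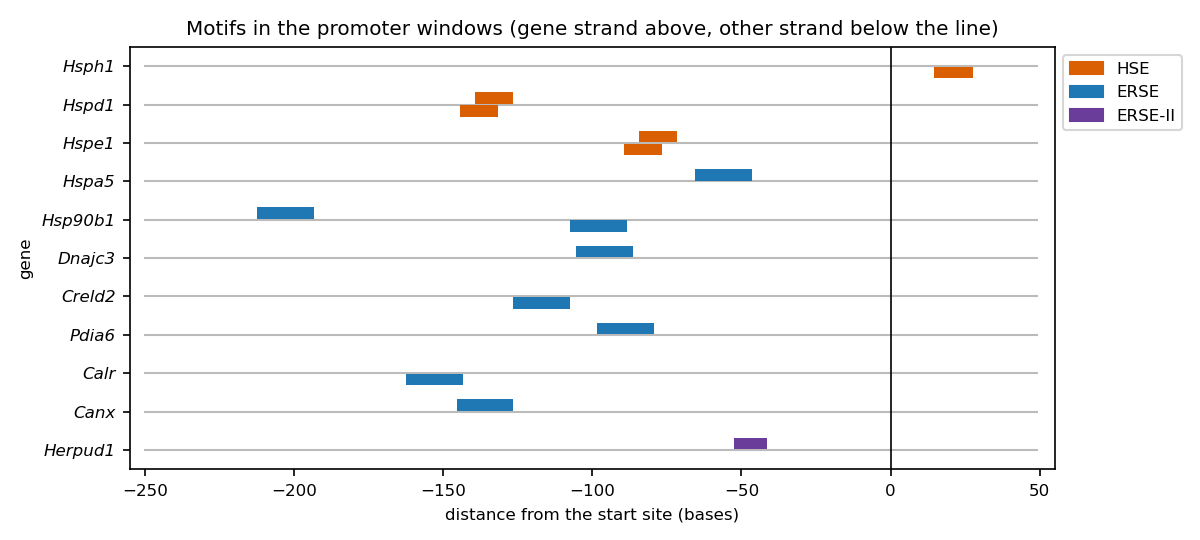
Position of each motif copy relative to the start site (bases) in the promoter windows of members that hold one, above the line for the gene strand and below it for the other strand. ERSE copies lie 65 to 212 bases before the start in 7 ER chaperone genes, ERSE-II at 52 bases before in Herpud1, and heat shock elements in Hspd1, Hspe1 and Hsph1.

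The ATF4 targets, 3 members, gave no common pattern. Asns, asparagine synthetase, was at 33.4 CPM after LGG, 29.4 after E. coli, 31.7 after PBS and 30.9 in untreated colon. LGG was highest, at 0.18 (0.05 to 0.32) over E. coli. Trib3 was at 1.23 CPM after LGG, 1.07 after E. coli, 0.935 after PBS and 1.16 in untreated colon, and Chac1, which degrades glutathione, at 1.03, 1.10, 1.12 and 1.12. At 15 to 36 counts per library these genes had wide intervals, such as -0.51 to 1.37 for the 0.39 of Trib3 in LGG over PBS.

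Wider lists of the same pathways had few genes past the size rule; over all genes, the shares past it and above 0 are those given for the members. Of 44 measured further cytosolic chaperones and heat shock genes, none was past it in any of the 6 comparisons. Their median over untreated was 0.06 for LGG, with 24 of 44 above 0, 0.01 for E. coli, with 23, and 0.08 for PBS, with 32. In E. coli over PBS it was -0.08 with 11 of 44 above 0, in LGG over PBS -0.02 with 18, and in LGG over E. coli 0.07 with 32. Ubb, a polyubiquitin gene and the most abundant, was at 865 CPM after LGG, 883 after E. coli, 856 after PBS and 621 in untreated colon. Fkbp4, an Hsp90 cochaperone, was at 329 CPM after LGG, 299.6 after E. coli, 326 after PBS and 257 in untreated colon. Both were lowest in untreated.

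Mitochondrial protein quality control genes, all 18 measured, also had none past the rule. Their median was 0.06 in LGG, 0.02 in E. coli and 0.00 in PBS over untreated, 0.06 in LGG and 0.02 in E. coli over PBS, and 0.05 in LGG over E. coli. Afg3l2, an inner membrane protease subunit, was at 187 CPM after LGG, 196 after E. coli, 186 after PBS and 164 in untreated colon. Yme1l1, another inner membrane protease, was at 141 CPM after LGG, 137 after E. coli, 136 after PBS and 135 in untreated colon.

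Of 69 further genes of ER translocation, folding, glycosylation and ERAD, 56 were above 0 in LGG, 52 in E. coli and 56 in PBS over untreated. Their medians were 0.12, 0.06 and 0.10. Library totals shifted the all-gene medians of these comparisons by a like size, -0.10, -0.08 and -0.09. This list was not recomputed with library totals. Derl3, an ERAD gene that is also on the plasma and B cell marker list below, was past the rule as higher in each of these comparisons. It was at 1.30 CPM after LGG, 1.41 after E. coli, 1.496 after PBS and 0.420 in untreated colon. Its ratio was 1.58 (0.66 to 2.70) for LGG, 1.70 (0.79 to 2.81) for E. coli and 1.78 (0.77 to 2.96) for PBS. Creb3l2, a membrane-bound transcription factor of secretory cells, was the only one past the rule against PBS, as lower in LGG at -0.63 (-0.85 to -0.41). It was at 13.1 CPM after LGG, 16.4 after E. coli, 20.3 after PBS and 19.2 in untreated colon. The list median was 0.02 in LGG over PBS, -0.03 in E. coli over PBS and 0.03 in LGG over E. coli.

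Of 39 measured integrated stress response genes, 19 were above 0 in LGG, 19 in E. coli and 21 in PBS over untreated. These counts, and the 1 to 3 genes of the list past the rule in each of the 3, were near the shares over all genes given for the members. Slc7a11, the cystine transporter, was at 1.85 CPM after LGG, 2.27 after E. coli, 2.24 after PBS and 1.19 in untreated colon, past the rule as higher in E. coli at 0.92 (0.31 to 1.57) and in PBS at 0.90 (0.20 to 1.63). Nupr1, a stress-responsive nuclear protein, was at 85.9 CPM after LGG, 74.4 after E. coli, 69.7 after PBS and 113 in untreated colon, past the rule as lower in E. coli at -0.60 (-0.68 to -0.52) and in PBS at -0.69 (-0.79 to -0.59). Gdf15, a stress cytokine, was past it as higher in LGG at 0.69 and in E. coli at 0.69 over untreated, with 3.18 CPM after LGG, 3.17 after E. coli, 2.62 after PBS and 1.96 in untreated colon. Members of this list thus lay on either side of 0, and none of the 39 was past the rule against PBS.

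Cell type markers also differed between the libraries. Colonocyte markers summed to 22581 CPM after LGG, 22012 after E. coli, 22010 after PBS and 17626 in untreated colon, with 14, 13 and 13 of 14 above 0 over untreated in LGG, E. coli and PBS. Goblet cell markers summed to 30070 CPM after LGG, 28515 after E. coli, 29074 after PBS and 26443 in untreated colon, with 12, 9 and 9 of 14 above 0. Plasma and B cell markers summed to 335 CPM after LGG, 325 after E. coli, 329 after PBS and 298 in untreated colon. Of 12 measured, 10 were above 0 over untreated in each gavaged library. Their median over untreated was 0.52 for LGG, 0.74 for E. coli and 0.62 for PBS. Past the size rule as higher were 4, 7 and 6 of the 12, with 1 lower in LGG. Of all genes, 1.64%, 2.82% and 2.37% were higher. Colonocyte markers had 3, 5 and 4 past the rule as higher, goblet cell markers none. All 3 lists were at their lowest sum in untreated, as was the ER chaperone group. Muc2, the main secreted mucin, was itself highest there, at 9719.9 CPM after LGG, 8174 after E. coli, 8281 after PBS and 10513 in untreated colon.

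Markers of the muscle coat went the other way. Smooth muscle markers summed to 16286 CPM after LGG, 14895 after E. coli, 16345 after PBS and 17991 in untreated colon, with 3, 0 and 2 of 16 above 0 over untreated. They were lowest in E. coli, where 0 of 16 were above 0 over PBS and 15 of 16 were above 0 in LGG over E. coli. Enteric neuron and glia markers summed to 168 CPM after LGG, 138 after E. coli, 161 after PBS and 208 in untreated colon.

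Markers of cells foreign to the colon and of its outer layers differed as well. Pancreatic acinar markers, from cells rich in ER, summed to 241 CPM after LGG, 341 after E. coli, 230 after PBS and 133 in untreated colon, with 1 of 17 at 0 in each. The sum understates the differences of single genes. Over untreated the median ratio was 3.12 for LGG, 3.73 for E. coli and 1.98 for PBS, and 12, 14 and 12 of the 15 measured were past the rule as higher. Small intestinal enterocyte markers summed to 820 CPM after LGG, 628 after E. coli, 661 after PBS and 744 in untreated colon. Their median over untreated was -0.75 for LGG, -1.47 for E. coli and -1.23 for PBS. Past the rule were 7, 8 and 8 of 11 as lower and 1 in each as higher. Mesothelium markers summed to 2821 to 3574 CPM with the lowest sum in untreated, yet their median over untreated was -0.82 for LGG, -1.26 for E. coli and -0.23 for PBS. Past the rule as lower were 5, 6 and 1 of 7. Over untreated, Krt19 alone was above 0 in LGG, at 0.35, and in E. coli, at 0.24. The lower untreated sum beside these libraries thus came from Krt19 and not from the other markers. In PBS 2 of 7 were above 0, with Krt19 highest at 0.27. Macrophage markers were level in sum, at 174 to 177 CPM, with medians of -0.14 in LGG, -0.06 in E. coli and 0.00 in PBS over untreated. Past the rule as lower were 2 of 10 in LGG over untreated, 1 in LGG over PBS and 1 in LGG over E. coli. None was past it as higher in these. Adipocyte markers summed to 284 CPM after LGG, 168 after E. coli, 226 after PBS and 295 in untreated colon. In none of these lists other than the acinar one was a gene at 0. The part of these cells in the chaperone differences was not tested.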

How the data were processed

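RNA was extracted with TRIzol and columns and sequenced from TruSeq RNA v2 libraries, per the labels' protocols. The submitters' processing notes name TopHat2, HOMER and build mm9. Roles, versions and the use of strand in counting: not given in the sources used here. Expected counts were deposited as 1 table, 1 row per gene symbol with mm9 coordinates. Counts rise in steps of 0.5 (38.6% of all values are not whole) and were rounded to whole numbers. No column was left without a sample.

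Library sizes for CPM were scaled by TMM (edgeR 4.0.16 under R 4.3.3). A count of 0 allows up to 0.103 CPM after LGG or E. coli, 0.187 after PBS and 0.105 in untreated colon. Log2 ratios added 0.5 counts before scaling, with exact conditional (Clopper-Pearson) 95% intervals, in Python 3.11.15 with scipy 1.17.1. The size rule was at least 1.5-fold, an interval excluding 0 and a mean of at least 1 CPM; the ratio code was tested on simulated data. With 1 library per group no count test was run. Levels between genes were divided by the length in the table. The member rule names symbols and no values, but the members, the lists and the size rule were all chosen with earlier results of these data known.

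Values in every library are written out for members past the rule, the 2 most abundant of each role per kilobase, Hsf1 and the ER sensors and factors, and the member with the largest ratio of each role in each comparison; further members were added for completeness. From the wider lists, up to 4 genes past the rule are named, or the 2 most abundant where none passed. Alternatives were DESeq2 1.42.0 size factors, library totals, upper-quartile factors, other expression filters, a prior of 5 counts, a 2-fold threshold, summed counts and the untreated library as control. Promoter windows came from RefSeq (GRCm38.p6) by symbol and matched 31 of 40 members; Hspa8, Hspa9, Hsp90aa1, Hsp90ab1, Hsf1, Ern2, Atf6, Hyou1 and Manf are named only.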

Additional observations from a re-analysis of the deposited data

How the results depend on the processing

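DESeq2 size factors, upper-quartile factors, other expression filters, a prior of 5 counts and summing Hspa1a with Hspa1b left every group median within set bounds. The bounds were the medians of the members' lower and upper interval limits. They describe a typical single gene and are not an error of the group median. Every count of members past the size rule stayed within 1.5 times. Among counts above 0, that of the ATF4 targets in PBS over untreated became 1 in place of 2 with DESeq2 or upper-quartile factors, and that of the sensors and factors in LGG over E. coli became 1 in place of 2 with upper-quartile factors. Library totals moved the ratios over untreated. The members past the size rule became 0 higher in PBS, 1 higher and 1 lower in LGG, and 2 lower in E. coli over untreated. The medians became -0.027 (cytosolic), 0.20 (mitochondrial) and 0.29 (ER chaperones) in PBS over untreated. For E. coli over untreated they became -0.0068 (all members), -0.25 (cytosolic), 0.044 (mitochondrial) and -0.020 (sensors and factors). For LGG over untreated they became 0.073 (all members), -0.15 (cytosolic), 0.18 (mitochondrial) and 0.25 (ER chaperones). Of 40 members, 8 changed sign in PBS, 7 in E. coli and 3 in LGG over untreated. A 2-fold threshold left 0 members higher and 0 lower in PBS over untreated and 0 higher in LGG over untreated. With the untreated library as control in place of PBS, the medians were 0.077 (all members), 0.13 (mitochondrial) and 0.23 (ER chaperones) for E. coli, and 0.17, 0.28 and 0.34 for LGG, with 2 members higher in LGG. Summed counts in place of the median gave 0.18 (cytosolic) and 0.18 (mitochondrial) in PBS over untreated, 0.032 and 0.051 in E. coli over untreated, and 0.10 and 0.16 in LGG over untreated. The cause of these shifts was not tested. The PBS library, the shallowest, sets the widest intervals. No paired analysis was possible because each group has 1 library, and no replicate could be left out.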
